A study of Mus musculus with 24 samples.

Results

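The enzymes that carry glucose into lactate and the genes of the cellular response to low oxygen were followed across 4 ages of tumor growth in the mouse mammary gland. The set held 32 members, chosen by symbol as the rows whose Ensembl identifier carries a listed name in GENCODE M1, out of 37991 genes in the count table. It comprised 2 glucose transporters, 8 genes of upper glycolysis, 7 of lower glycolysis, 4 of lactate and pyruvate handling, 3 HIF alpha subunits, 2 oxygen sensors and 6 HIF targets. RNA was sequenced from mammary glands of 24 mice in 8 groups, with 3 PyMT and 3 FVB females aged 6, 8, 10 or 12 weeks in each pair of groups. PyMT females were F1 offspring of FVB/N-Tg(MMTV-PyVT)634Mul/J males and FVB females and were heterozygous for the PyMT transgene, in which the MMTV long terminal repeat drives the polyoma middle T antigen in the mammary epithelium, and FVB females without the transgene were the controls. The ages stand, in order, for hyperplasia, adenoma/MIN (mammary intraepithelial neoplasia), early carcinoma and late carcinoma in PyMT. Transgene RNA itself was not analysed here. Each library came from a whole gland or tumor. A lower or higher count can thus come from fewer or more cells of a type or from less or more RNA per cell. These cannot be told apart.

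Glycolysis splits glucose into pyruvate, and most of its steps can be run by more than one isoenzyme, with forms that differ between muscle, fat, brain and epithelium. When oxygen falls, HIF alpha subunits escape hydroxylation by the Egln enzymes, pair with Arnt and bind the letters ACGTG or GCGTG near target genes, among which are most glycolytic enzymes, the lactate exporter Slc16a3 and Bnip3. Tumors often take up glucose and release lactate even when oxygen is present, and the fat of the normal mammary gland uses an insulin-controlled set of the same genes.

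The libraries held 6969375 to 13516601 counts. Markers of several cell types differed between the genotypes. Over 8 adipocyte markers the summed normalized count (count over the DESeq2 size factor of the library) ranged over 1181 to 15298 in PyMT against 49231 to 121616 in FVB, and 8 of 8 were called lower at every week. Sums of the endothelial markers ranged from 757 to 2091 in PyMT against 5479.9 to 9144 in FVB, and those of the fibroblast markers from 11798 to 24954 against 26720.0 to 103542. Luminal epithelial markers had sums of 20117 to 38043 in PyMT and 4260.4 to 18681 in FVB. Over all weeks 5 of these 6 markers were called higher, and 1 passed the adjusted p in the lower direction, under a fold of 2. The ranges of these 4 lists did not overlap between the genotypes, and no marker of any list was at 0 in all libraries of a genotype. Basal epithelial, macrophage and lymphocyte markers overlapped between the genotypes, while 3 of 3 erythrocyte and 2 of 2 brown fat markers were called lower over all weeks. The sum of 10 skeletal muscle markers ran from 0 to 36664 in PyMT and from 92.6 to 648958 in FVB, with all 10 called lower over all weeks. Their mean log2 level exceeded 10 in 7 libraries, 3 of PyMT (week 6 replicates 1 and 2, week 10 replicate 3) and 4 of FVB (week 6 replicates 1 and 2, week 10 replicate 3, week 12 replicate 1). In 13 libraries the number of genes per count value peaked at counts of 8 to 25 in place of falling from 1, so that their low counts came in packets of reads. FVB week 10 replicate 3 and PyMT week 8 replicate 2 had the largest share of genes at 0 among genes of 10 to 30 CPM (4.40% and 2.87%).

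Members moved in both directions, and more were lower than higher in PyMT. With all 24 samples in 1 fit and week as a factor, 17 of the 31 members that passed the filter on low counts were called, that is, passed both a threshold of 0.05 on the adjusted p and a fold change of 2 by the quasi-likelihood test of edgeR, Benjamini-Hochberg adjusted. Of these, 4 were higher in PyMT and 13 lower. Over all 14918 genes tested, 25.7% were called, 8.51% higher and 17.2% lower. The median log2 fold change was -0.47 over the 31 members and -0.03 over all genes tested. Members called higher were Slc2a1, Hk1, Aldoc and Egln3. Members called lower were Slc2a4, Hk2, Pfkfb3, Aldoa, Eno2, Slc16a3, Epas1, Hif3a, Egln1, P4ha1, P4ha2, Bnip3 and Adm. The median log2 fold change over all weeks was 1.61 for the luminal epithelial markers and -3.95 for the adipocyte markers. The part of these cell types in the differences of members, higher or lower, was not tested. By role, both transporters, both oxygen sensors and 5 of 8 genes of upper glycolysis were called, against 1 of 7 of lower glycolysis. Ankrd37 alone missed the filter on low counts and is described by its counts. In 9 of 31 members the 12 PyMT values lay apart from the 12 FVB values, against 11.9% of all genes tested. Without the 2 libraries with most zeros 14 members were called (4 higher, 10 lower), and Aldoa, Eno2 and Slc16a3 were not among them. Without the 7 muscle-rich libraries 16 were called (6 higher, 10 lower), with Pfkl and Pkm2 added and the same 3 lost.

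**Figure D1:**
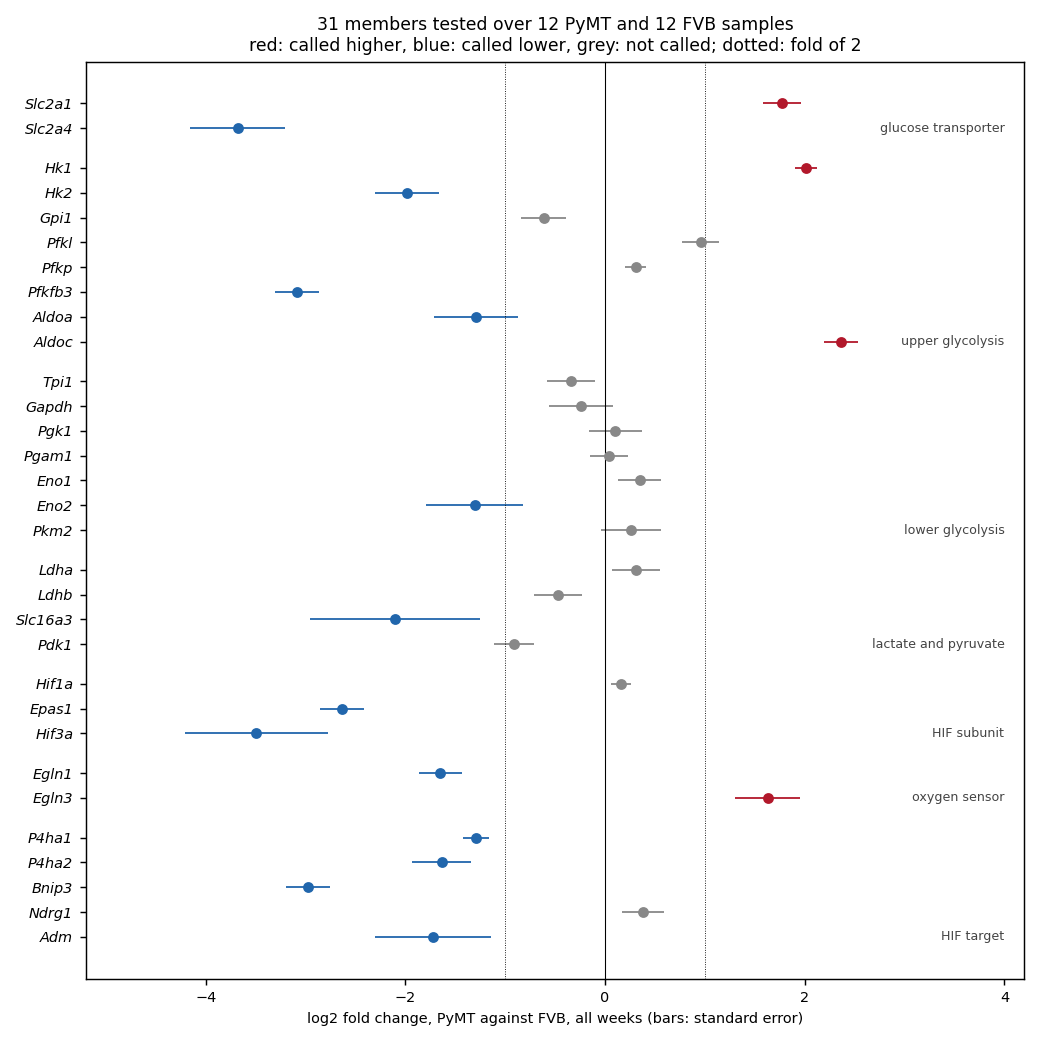
Log2 fold change of PyMT against FVB (x axis) for 31 members over all weeks, grouped by role, with bars of 1 standard error, red for members called higher, blue for members called lower and grey for the rest. The enzymes of lower glycolysis lie near 0 apart from Eno2 at -1.31, while Slc2a4 at -3.68 and Aldoc at 2.36 mark the ends of the range.

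Each week was also tested alone, 3 PyMT against 3 FVB samples. At week 6, 9 of 31 members were called (4 higher, 5 lower), against 10.0% of all genes tested, 3.58% higher and 6.46% lower. At week 8 the count was 8 (4 higher, 4 lower), against 9.95% of genes, 3.57% higher and 6.37% lower. At week 10 it was 11 (3 higher, 8 lower), against 13.9%, 4.83% higher and 9.09% lower. At week 12 it was 13 (3 higher, 10 lower), against 20.7%, 7.75% higher and 13.0% lower. PyMT and FVB samples did not overlap for 13, 15, 15 and 17 members at weeks 6, 8, 10 and 12, against 36.6%, 40.2%, 40.5% and 46.7% of all genes tested. Hk1 and Aldoc were called higher, and Pfkfb3, Epas1 and Bnip3 lower, at all 4 weeks. In all, 5 members were called at 4 weeks, 4 at 3 weeks, 3 at 2 weeks and 3 at 1 week, and 16 at none. The week 8 count rested on single libraries: it was 14 without FVB replicate 1, where Pfkl, Gapdh, Pgk1, Eno1, Pkm2 and Ldha were also called higher, and 5 without FVB replicate 2, and the week 10 count was 7 without PyMT replicate 1. With the muscle marker score as a covariate no gene of the whole table was called at week 8. Each weekly fit with this covariate had 6 samples and 3 residual degrees of freedom. At week 8 the score was 1.88 to 2.71 in PyMT and 3.52 to 6.52 in FVB, so that fit could hardly part the score from the genotype. At week 12 the score did not overlap either (3.53 to 6.27 against 6.73 to 14.65), and some members were still called.

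**Figure D2:**
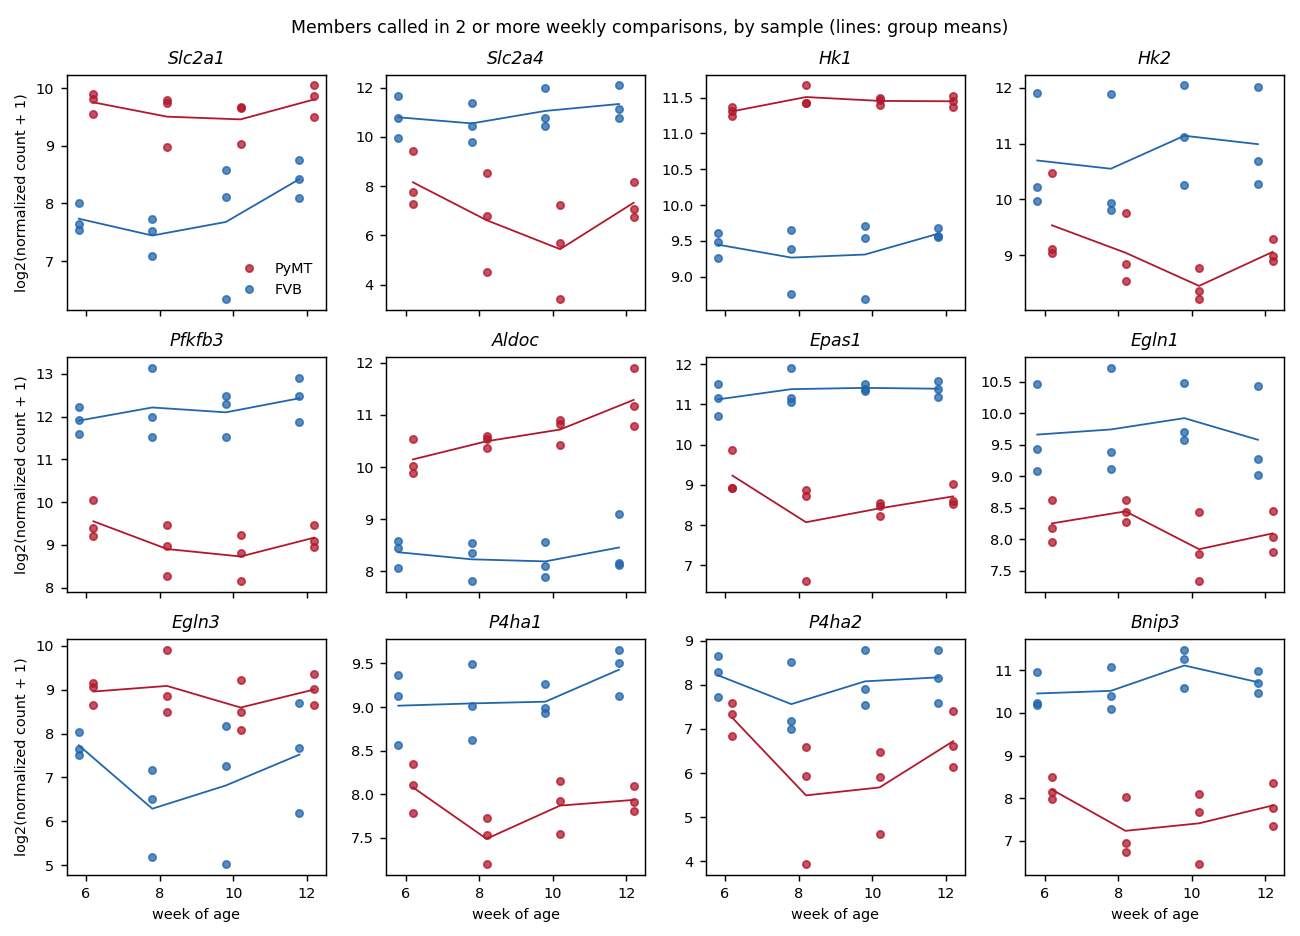
Normalized counts on the log2 scale with 1 added (y axis) by week of age (x axis) for the 12 members called at 2 or more weeks, with a point per sample, red for PyMT, blue for FVB, and lines through the means of 3. Slc2a1, Hk1 and Aldoc lie above FVB and Slc2a4, Pfkfb3, Epas1, Egln1, P4ha1, P4ha2 and Bnip3 below it at every week without overlap.

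The 4 members with the smallest adjusted p over all weeks were Hk1, Aldoc, Pfkfb3 and Bnip3, of which 2 rose and 2 fell in PyMT. They are shown with the 250 bases before each of their starts in the RefSeq promoter table (GRCm38.p6), placed in mm9 by a single exact match. Capitals mark ACGTG or GCGTG on the printed strand and CACGT or CACGC, their reverse complements. The window before the first Hk1 start held no such letters and that before the second held 3 matches. Aldoc had 1 match before each start, Pfkfb3 had 1 and 3, and Bnip3 had 5. Matches may overlap, as in CACGTG, which counts on both strands.
Hk1, start 1, chr10:61842657-61842906, minus strand: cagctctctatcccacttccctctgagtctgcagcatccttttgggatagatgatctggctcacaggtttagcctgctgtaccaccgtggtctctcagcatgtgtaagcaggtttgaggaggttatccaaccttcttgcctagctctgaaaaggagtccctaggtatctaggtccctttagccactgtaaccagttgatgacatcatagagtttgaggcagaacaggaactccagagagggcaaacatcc
Hk1, start 2, chr10:61803170-61803419, minus strand: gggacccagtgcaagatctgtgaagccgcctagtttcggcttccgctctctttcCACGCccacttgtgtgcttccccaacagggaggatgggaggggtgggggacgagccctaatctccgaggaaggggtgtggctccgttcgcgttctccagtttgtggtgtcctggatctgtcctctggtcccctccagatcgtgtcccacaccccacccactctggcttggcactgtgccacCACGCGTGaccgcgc
Aldoc, start 1, chr11:78136325-78136574, plus strand: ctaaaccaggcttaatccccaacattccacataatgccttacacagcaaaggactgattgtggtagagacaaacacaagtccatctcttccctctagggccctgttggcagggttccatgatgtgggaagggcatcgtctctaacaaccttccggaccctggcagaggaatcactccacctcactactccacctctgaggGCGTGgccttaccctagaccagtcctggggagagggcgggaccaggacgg
Aldoc, start 2, chr11:78137450-78137699, plus strand: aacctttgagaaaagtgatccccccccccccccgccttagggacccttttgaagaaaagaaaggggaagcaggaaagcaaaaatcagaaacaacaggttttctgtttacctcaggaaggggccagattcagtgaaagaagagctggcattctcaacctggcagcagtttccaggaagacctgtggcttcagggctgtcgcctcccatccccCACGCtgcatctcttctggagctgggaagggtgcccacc
Pfkfb3, start 1, chr2:11475557-11475806, minus strand: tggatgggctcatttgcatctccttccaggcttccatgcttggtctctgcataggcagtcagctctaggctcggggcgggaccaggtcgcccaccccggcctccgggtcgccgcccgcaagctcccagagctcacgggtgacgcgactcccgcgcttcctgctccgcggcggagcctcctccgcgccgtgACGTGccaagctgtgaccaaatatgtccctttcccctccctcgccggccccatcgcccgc
Pfkfb3, start 2, chr2:11423718-11423967, minus strand: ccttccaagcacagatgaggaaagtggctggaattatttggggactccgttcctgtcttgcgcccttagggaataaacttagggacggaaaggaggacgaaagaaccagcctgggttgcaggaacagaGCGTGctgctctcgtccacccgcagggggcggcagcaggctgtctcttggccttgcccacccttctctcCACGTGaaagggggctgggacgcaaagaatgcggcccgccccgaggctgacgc
Bnip3, start 1, chr7:146101190-146101439, minus strand: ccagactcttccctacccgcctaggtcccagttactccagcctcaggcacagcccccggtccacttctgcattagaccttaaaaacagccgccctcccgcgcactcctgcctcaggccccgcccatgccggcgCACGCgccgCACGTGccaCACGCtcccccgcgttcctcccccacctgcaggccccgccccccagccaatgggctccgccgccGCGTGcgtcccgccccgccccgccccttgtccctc
Genes on both sides of the comparison thus held the letters. Promoters were found in the table for 29 of the 32 members and not for Slc2a4, Epas1 and Ndrg1. Of the 39 member windows of 250 bases, 32 (82.1%) held the letters, against 12679 of 32851 windows (38.6%) in the whole table. The letters contain CG, and member windows had a median GC content of 62.8% against 52.4% in the table. A match describes the letters in a window and not binding.

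The glucose transporters moved in opposite directions. Slc2a1 (chr4:118781316-118809935 of mm9), the transporter of basal glucose uptake, was higher in PyMT. In PyMT its normalized counts were 957, 752 and 898 at week 6, 858, 505 and 889 at week 8, 821, 525 and 809.8 at week 10 and 932, 725 and 1063 at week 12. In FVB they were 199.9, 186 and 257 at week 6, 135, 210.1 and 182 at week 8, 381, 277 and 79.9 at week 10 and 345, 429.7 and 271 at week 12. Every PyMT sample lay above every FVB sample, and FVB week 10 replicate 3 was the lowest. Over all weeks the log2 fold change was 1.77 ± 0.19 (adjusted p = 3.27e-08) by the quasi-likelihood test of edgeR, Benjamini-Hochberg adjusted. Slc2a1 rose at weeks 6, 8 and 12, with 2.02 ± 0.22 (week 6, adjusted p = 0.00202), 2.11 ± 0.31 (week 8, adjusted p = 0.00822) and 1.43 ± 0.23 (week 12, adjusted p = 0.0029) in the same test. At week 10 the value was 1.58 ± 0.52 (adjusted p = 0.0782), and without FVB replicate 3 it was 1.17 (adjusted p = 0.0225) and called, as it was by DESeq2 at 1.58 (adjusted p = 0.0138).

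Slc2a4 (chr11:69756045-69761690), the insulin-controlled transporter of fat and muscle, was lower in PyMT. Its PyMT normalized counts were 152, 689 and 218 at week 6, 374, 22.0 and 109 at week 8, 49.95, 9.63 and 149.8 at week 10 and 286, 106 and 133 at week 12. The FVB values were 3200.2, 1749 and 999 at week 6, 2679, 1408 and 886 at week 8, 1720.4, 1379 and 4042 at week 10 and 4379, 1762 and 2228 at week 12. PyMT spanned 9.63 to 689 and FVB 886 to 4379, with no overlap and a wide spread among PyMT samples. Slc2a4 fell, with a log2 fold change of -3.68 ± 0.48 (adjusted p = 6.99e-07) over all weeks, -2.52 ± 0.62 (week 6, adjusted p = 0.035), -5.00 ± 0.91 (week 10, adjusted p = 0.00841) and -3.95 ± 0.48 (week 12, adjusted p = 0.000894) by the quasi-likelihood test of edgeR, Benjamini-Hochberg adjusted. The value at week 8 was -3.28 ± 0.90 (adjusted p = 0.0555), and it was called without PyMT replicate 1 at -4.61 (adjusted p = 0.0423). DESeq2 (-3.30, adjusted p = 0.000344) and voom (-2.71, adjusted p = 0.00766) also called Slc2a4 at week 8. So did edgeR without the filter on low counts (-3.26, adjusted p = 0.000849) and in 1 fit of all 24 samples (-3.28, adjusted p = 0.0119). The week 6 call was lost without PyMT replicate 1 (log2 fold change -2.10, adjusted p = 0.106), FVB replicate 1 (log2 fold change -1.95, adjusted p = 0.0784), FVB replicate 2 (log2 fold change -2.61, adjusted p = 0.0807) or PyMT replicate 3 (log2 fold change -2.21, adjusted p = 0.127). The week 10 call was lost without PyMT replicate 1 (log2 fold change -4.81, adjusted p = 0.0507). The adipocyte markers fell in the same samples, and their part in the Slc2a4 difference was not tested. Within FVB, Slc2a4 was highest in replicate 1 of weeks 6, 8 and 12 and replicate 3 of week 10. These were also the FVB libraries highest in brown fat markers, whose part was not tested either.

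Upper glycolysis runs from the phosphorylation of glucose to the splitting of the sugar by aldolase. Of its 8 genes, Hk1 and Aldoc rose over all weeks, Hk2, Pfkfb3 and Aldoa fell, and Gpi1, Pfkl and Pfkp were not called.

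Hk1 (chr10:61731603-61842656), the hexokinase of most tissues, was higher in PyMT, with a narrow spread within each genotype. In PyMT its normalized counts were 2544, 2431 and 2638 at week 6, 2744, 2756 and 3266 at week 8, 2889.9, 2838 and 2692 at week 10 and 2647, 2795 and 2952 at week 12, and in FVB they were 609, 714 and 778 at week 6, 431, 668 and 804 at week 8, 833, 742 and 411 at week 10 and 757, 751 and 819 at week 12. The lowest PyMT value (2431) lay far above the highest FVB value (833). The log2 fold change was 2.01 ± 0.11 (adjusted p = 1.58e-12) over all weeks, and 1.85 ± 0.17 (week 6, adjusted p = 0.0015), 2.22 ± 0.26 (week 8, adjusted p = 0.0051), 2.13 ± 0.28 (week 10, adjusted p = 0.00233) and 1.90 ± 0.16 (week 12, adjusted p = 0.000267), by the quasi-likelihood test of edgeR, Benjamini-Hochberg adjusted. The call held without any 1 library in each of these fits.

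Hk2 (chr6:82675019-82724448), the hexokinase of insulin-sensitive tissues, went the other way. Its PyMT normalized counts were 549.8, 1417 and 525 at week 6, 861, 373 and 457 at week 8, 328, 296 and 439 at week 10 and 627, 476 and 509 at week 12. Its FVB counts were 3843, 1189.7 and 1002 at week 6, 3813, 979 and 901 at week 8, 2217, 1228 and 4227 at week 10 and 4146, 1235 and 1642 at week 12. At week 6 the groups overlapped through PyMT replicate 2, while at weeks 8, 10 and 12 every PyMT sample was below every FVB sample. Replicate 1 of FVB at weeks 6, 8 and 12 and replicate 3 at week 10 stood above the other FVB samples. These were also the FVB libraries highest in brown fat markers (mean log2 11.57 to 12.46, against at most 10.06 in the others). PyMT week 6 replicate 2, at 11.21, was the highest of PyMT. FVB week 6 replicate 1, week 10 replicate 3 and week 12 replicate 1 were also rich in muscle markers (mean log2 15.13, 15.28 and 14.65). In these libraries muscle and brown fat cannot be told apart. FVB week 8 replicate 1 was not rich in muscle markers (mean log2 5.41). The FVB libraries highest in brown fat markers were also the highest of FVB for Slc2a4, Egln1 and Gpi1. The part of brown fat in these differences and in that of Hk2 was not tested. Hk2 fell by the quasi-likelihood test of edgeR, Benjamini-Hochberg adjusted, over all weeks, with a log2 fold change of -1.99 ± 0.32 (adjusted p = 1.43e-05), and with -2.79 ± 0.44 (week 10, adjusted p = 0.00463) and -2.08 ± 0.42 (week 12, adjusted p = 0.00848). The values not called were -1.30 ± 0.58 (week 6, adjusted p = 0.195) and -1.73 ± 0.61 (week 8, adjusted p = 0.108). At week 8 Hk2 was called by DESeq2 (-1.75, adjusted p = 0.0179) and by edgeR without the filter on low counts (-1.71, adjusted p = 0.0112). Without FVB replicate 1 the week 12 value was -1.37 and still called. With the muscle score as a covariate the week 12 value was -1.02 (adjusted p = 0.165) and the call was lost, while over all weeks it was -1.58 (adjusted p = 4.51e-05).

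Pfkfb3 (chr2:11393057-11423728), which makes the activator of phosphofructokinase, was lower in PyMT at every week. In PyMT it was counted at 593, 1060.3 and 668 at week 6, 709, 308 and 498 at week 8, 282, 603 and 445 at week 10 and 705, 541 and 496 at week 12 normalized counts. In FVB it was counted at 4759, 3069.8 and 3867 at week 6, 9078, 2922 and 4046 at week 8, 2951, 5036 and 5699.7 at week 10 and 5763, 3785 and 7704 at week 12. PyMT values ended at 1060.3 and FVB values began at 2922. By the quasi-likelihood test of edgeR, Benjamini-Hochberg adjusted, Pfkfb3 fell with a log2 fold change of -3.09 ± 0.22 (adjusted p = 5.17e-11) over all weeks, and with -2.35 ± 0.28 (week 6, adjusted p = 0.00259), -3.38 ± 0.51 (week 8, adjusted p = 0.00858), -3.31 ± 0.36 (week 10, adjusted p = 0.000984) and -3.26 ± 0.29 (week 12, adjusted p = 0.000325). No call was lost without any 1 library.

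Aldoc (chr11:78136470-78141283), the aldolase best known from brain, was higher in PyMT. The PyMT normalized counts were 1494, 942 and 1030.2 at week 6, 1476, 1538 and 1317 at week 8, 1822, 1909 and 1372 at week 10 and 2305, 1760.3 and 3837 at week 12. The FVB normalized counts were 266, 383 and 349.8 at week 6, 223, 325 and 370.3 at week 8, 275, 237 and 379 at week 10 and 286, 544 and 277 at week 12. The mean of 3 PyMT samples was 1155 ± 296 (SD) at week 6 and 2634 ± 1077 at week 12, where replicate 3 was the highest of all samples and every PyMT sample lay above every FVB sample, while the FVB means were 333 ± 60.0 and 369 ± 152. Aldoc rose by the quasi-likelihood test of edgeR, Benjamini-Hochberg adjusted, with a log2 fold change of 2.36 ± 0.17 (adjusted p = 4.4e-11) over all weeks, and with 1.79 ± 0.25 (week 6, adjusted p = 0.00405), 2.25 ± 0.23 (week 8, adjusted p = 0.00384), 2.57 ± 0.24 (week 10, adjusted p = 0.000506) and 2.89 ± 0.38 (week 12, adjusted p = 0.00123). Within PyMT the log2 fold change of week 12 against week 6 was 1.19 ± 0.29 (adjusted p = 0.182) in edgeR's fit of 8 groups, and 1.19 with adjusted p = 0.0248 in DESeq2. All 3 PyMT samples of week 12 lay above all 3 of week 6.

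Aldoa, the aldolase of muscle and most other tissues, was called lower over all weeks, with -1.29 ± 0.42 (adjusted p = 0.0123) as its log2 fold change by the quasi-likelihood test of edgeR, Benjamini-Hochberg adjusted, and at no single week in this test with all libraries. At week 6 it was called without FVB replicate 3 (-2.20, adjusted p = 0.0282) and with the muscle covariate (-1.22, adjusted p = 0.0451). The lowest, median and highest normalized counts were 3975, 5269.7 and 15209 in PyMT and 3806, 7654 and 51705 in FVB, which overlapped. In FVB the 4 libraries rich in muscle markers held 15400.3 to 51705 and the 8 others 3806 to 14108. The log2 fold change was -0.35 (adjusted p = 0.334) with the muscle score as a covariate and -0.22 (adjusted p = 0.54) without the 7 muscle-rich libraries, and the call was lost in both. It was also lost with voom, at -0.38 (adjusted p = 0.355), without FVB week 10 replicate 3, at -0.87 (adjusted p = 0.0576), without week 6, at -1.12 (adjusted p = 0.0569), and when only library size scaled the counts, at -0.84 (adjusted p = 0.0477).

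Gpi1, the isomerase that follows hexokinase, had PyMT counts of 1331 to 2744 and FVB counts of 1520.4 to 6149, and its log2 fold change of -0.62 ± 0.23 (adjusted p = 0.0253) stayed under a fold of 2. Exons of Gm17327 on the opposite strand overlap 16.5% of its exon length. Pfkl and Pfkp are subunits of phosphofructokinase, the committed step. Pfkl was at 1998, 2705 and 4032 normalized counts in PyMT (lowest, median, highest) and 920.0, 1193 and 2628 in FVB. Its log2 fold change by the quasi-likelihood test of edgeR, Benjamini-Hochberg adjusted, was 0.96 ± 0.18 (adjusted p = 0.000127) over all weeks, just under a fold of 2, and 1.27 ± 0.26 (adjusted p = 0.0147) at week 10, where it was called. The week 10 call was lost without PyMT replicate 1 (log2 fold change 1.11, adjusted p = 0.0622), FVB replicate 1 (log2 fold change 1.16, adjusted p = 0.057), FVB replicate 2 (log2 fold change 1.17, adjusted p = 0.0515) or PyMT replicate 3 (log2 fold change 1.24, adjusted p = 0.0519). It was called at weeks 6, 8 and 12 when FVB replicate 1 of that week was left out, at 1.37, 1.49 and 1.33 (adjusted p = 0.0139, 0.00528 and 0.0107). Without the 7 muscle-rich libraries Pfkl was called over all weeks at 1.12 (adjusted p = 0.0002). Pfkp, at 726 to 1463 in PyMT and 609 to 1159 in FVB, had log2 fold changes between 0.12 and 0.48 at single weeks and 0.31 ± 0.11 (adjusted p = 0.0196) over all weeks, and was not called.

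Lower glycolysis runs from triose phosphate to pyruvate, and 1 of its 7 genes, Eno2, was called over all weeks. Tpi1, Gapdh, Pgk1, Pgam1, Eno1 and Pkm2 were not called at any week or over all weeks by edgeR's test with all libraries, and over all weeks their log2 fold changes ran from -0.34 (Tpi1) to 0.35 (Eno1). Pkm2, the pyruvate kinase gene, spanned 6572 to 10522 normalized counts in PyMT and 2167 to 16964 in FVB, with the PyMT range inside that of FVB. Tpi1 spanned 1309 to 2101 in PyMT against 862 to 4919 in FVB. Eno1 spanned 1627 to 2671 in PyMT against 851 to 3143 in FVB. For Pkm2 the 4 muscle-rich FVB libraries reached 6799 to 16964 and the 8 others 2167 to 7482. By the quasi-likelihood test of edgeR, Benjamini-Hochberg adjusted, the log2 fold change of Pkm2 was 0.26 ± 0.30 (adjusted p = 0.504) in all libraries, 0.90 (adjusted p = 0.00225) with the muscle covariate and 1.12 (adjusted p = 0.000126) without the 7 muscle-rich libraries, where it was called higher. Eno1, the common enolase, gave 0.70 (adjusted p = 0.0108) and Tpi1, the triose phosphate isomerase, 0.33 (adjusted p = 0.0587) without these libraries, both under a fold of 2. With all libraries kept, voom called Gapdh (1.38, adjusted p = 0.0314), Pgk1 (1.16, adjusted p = 0.0414) and Pkm2 (1.36, adjusted p = 0.00237) higher at week 8 and Pkm2 at week 10 (1.23, adjusted p = 0.0145). Counts over packet size gave a call for Gapdh at week 8 (1.29, adjusted p = 0.0427), and the muscle covariate for Pkm2 at week 12 (1.52, adjusted p = 0.0278). At week 8 without FVB replicate 1, Gapdh was called at 1.48 (adjusted p = 0.0453), Pgk1 at 1.42 (adjusted p = 0.0291) and Eno1 at 1.19 (adjusted p = 0.0206), and Eno1 also at week 10 without FVB replicate 3, at 1.08 (adjusted p = 0.00272). At single weeks Pkm2 was also called without FVB week 8 replicate 1, at 1.55 (adjusted p = 0.00779), and without FVB week 10 replicate 3, at 1.56 (adjusted p = 0.000656).

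Eno2, the enolase of neurons, was counted low, at 0, 22.2 and 82.4 normalized counts in PyMT (lowest, median, highest) and 20.5, 55.6 and 134 in FVB. It was called lower over all weeks at -1.31 ± 0.49 (adjusted p = 0.0287) by the quasi-likelihood test of edgeR, Benjamini-Hochberg adjusted, with overlapping groups. The call was lost without FVB week 8 replicate 2 (-1.24, adjusted p = 0.0508), FVB week 10 replicate 3 (-1.21, adjusted p = 0.0549), FVB week 12 replicate 3 (-1.14, adjusted p = 0.054) or PyMT week 12 replicate 2 (-1.23, adjusted p = 0.0529), and at -1.33 (adjusted p = 0.109) without the 7 muscle-rich libraries. It was also lost when week 6 (-1.49, adjusted p = 0.0524), week 8 (-1.38, adjusted p = 0.0698) or week 12 (-0.90, adjusted p = 0.126) was left out. In the week 12 comparison DESeq2 called it (-2.65, adjusted p = 0.0322).

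Several of these enzymes have copies elsewhere in the genome, which bears on how many of their reads could be counted. Of the 50-base windows of each longest coding transcript, 82.9% for Gapdh, 73.6% for Pgk1, 62.7% for Pgam1 and 56.1% for Eno1 occurred exactly at another place in mm9. Among other members the share was 41.5% for Bnip3, 27.4% for Pkm2, 24.1% for Gpi1, 23.9% for Ldhb and 20.9% for Ldha, and it was 0 for 17 members. Gapdh, the dehydrogenase often used as a reference gene, was at 47.1 to 177 normalized counts in PyMT and 55.8 to 328 in FVB. Per kilobase of exon its median in FVB was 51.4, against 754 for Tpi1 and 1793 for Pkm2. Pgk1, phosphoglycerate kinase, had a median of 72.9 and Pgam1, phosphoglycerate mutase, of 79.4 on the same scale. Normalized counts of Pgk1 ranged over 163 to 354 in PyMT against 98.1 to 472 in FVB, and those of Pgam1 over 99.0 to 263 and 99.2 to 233. Their levels and folds are therefore uncertain. The treatment of reads with several places and the read length are not given in the sources used here, and the part of copies in these levels was not tested. Single weeks gave log2 fold changes for Gapdh of -1.23 ± 0.56 (week 6, adjusted p = 0.203) and 1.07 ± 0.43 (week 8, adjusted p = 0.156) by the quasi-likelihood test of edgeR, Benjamini-Hochberg adjusted, with no call at either.

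**Figure D3:**
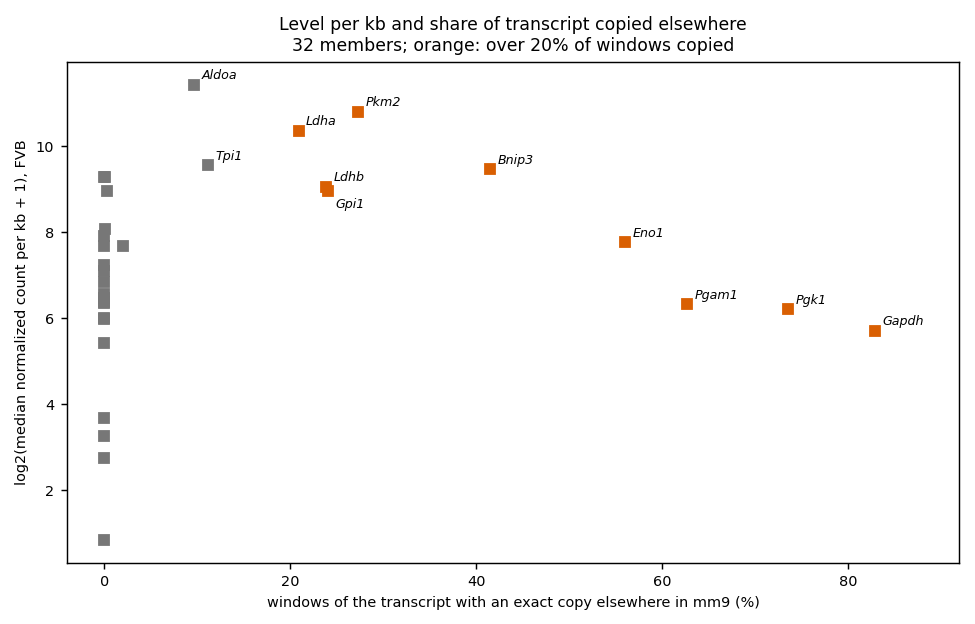
Median level in 12 FVB libraries as log2 of the normalized count per kilobase with 1 added (y axis) against the percentage of 50-base transcript windows with an exact copy elsewhere in mm9 (x axis), with a square per member. Gapdh, Pgk1, Pgam1 and Eno1, each over 50%, lie below Aldoa, Pkm2, Ldha and Tpi1 in level.

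Of the genes of lactate and pyruvate, Slc16a3 alone was called over all weeks. Ldha, which turns pyruvate into lactate, spanned 5001 to 9188 normalized counts in PyMT and 2345 to 11096 in FVB. Its log2 fold change was 0.31 ± 0.24 (adjusted p = 0.288) by the quasi-likelihood test of edgeR, Benjamini-Hochberg adjusted, and 0.90 (adjusted p = 0.00026) without the 7 muscle-rich libraries, under a fold of 2. It was called higher at single weeks when FVB week 8 replicate 1 (1.24, adjusted p = 0.0108), FVB week 10 replicate 3 (1.09, adjusted p = 0.00294) or FVB week 12 replicate 1 (1.01, adjusted p = 0.0204) was left out, and at week 8 by voom with all libraries (1.202, adjusted p = 0.00199). Ldhb, the form that favours the reverse reaction, was at 344 to 1306 in PyMT and 520.4 to 1775 in FVB, with a log2 fold change of -0.47 ± 0.24 (adjusted p = 0.103).

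Slc16a3, which exports lactate, was counted low. The lowest, median and highest normalized counts were 0, 20.2 and 43.5 in PyMT and 0, 30.3 and 477 in FVB. The 4 muscle-rich FVB libraries held 81.1 to 477 and the 8 others 0 to 35.2, which did not overlap. The log2 fold change over all weeks was -2.10 ± 0.86 (adjusted p = 0.0432) by the quasi-likelihood test of edgeR, Benjamini-Hochberg adjusted, -0.43 (adjusted p = 0.653) with the muscle covariate and -0.13 (adjusted p = 0.9) without the 7 muscle-rich libraries. The call was also lost when any of 11 single libraries was left out (PyMT week 6 replicates 1, 2 and 3, week 10 replicates 1 and 2 and week 12 replicates 1, 2 and 3, FVB week 6 replicate 1, week 10 replicate 3 and week 12 replicate 1), with values from -2.17 to -1.56 and adjusted p from 0.0523 to 0.164. With voom it was -0.37 (adjusted p = 0.691) over all weeks, and DESeq2 called it at week 6 (-4.15, adjusted p = 0.00939). Exons of Csnk1d on the opposite strand overlap 15.6% of its exon length, and whether the counting used strand is not given in the sources used here.

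Pdk1, the kinase that holds pyruvate back from the mitochondrial dehydrogenase, was at 418, 511 and 805 normalized counts in PyMT (lowest, median, highest) and 454, 882 and 1749 in FVB. It was called lower at week 12 at -1.17 ± 0.31 (adjusted p = 0.0243) by the quasi-likelihood test of edgeR, Benjamini-Hochberg adjusted, and over all weeks it gave -0.91 ± 0.20 (adjusted p = 0.000567), under a fold of 2. The week 12 call was lost without PyMT replicate 1 (log2 fold change -1.21, adjusted p = 0.0636), FVB replicate 1 (log2 fold change -0.69, adjusted p = 0.0284), PyMT replicate 2 (log2 fold change -1.11, adjusted p = 0.0868) or PyMT replicate 3 (log2 fold change -1.19, adjusted p = 0.0778). It was also lost with the muscle covariate, at -0.35 (adjusted p = 0.532), and with library size only, at -0.80 (adjusted p = 0.0419). Pdk1 was called at week 8 without FVB replicate 3, at -1.26 (adjusted p = 0.0373).

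**Figure D4:**
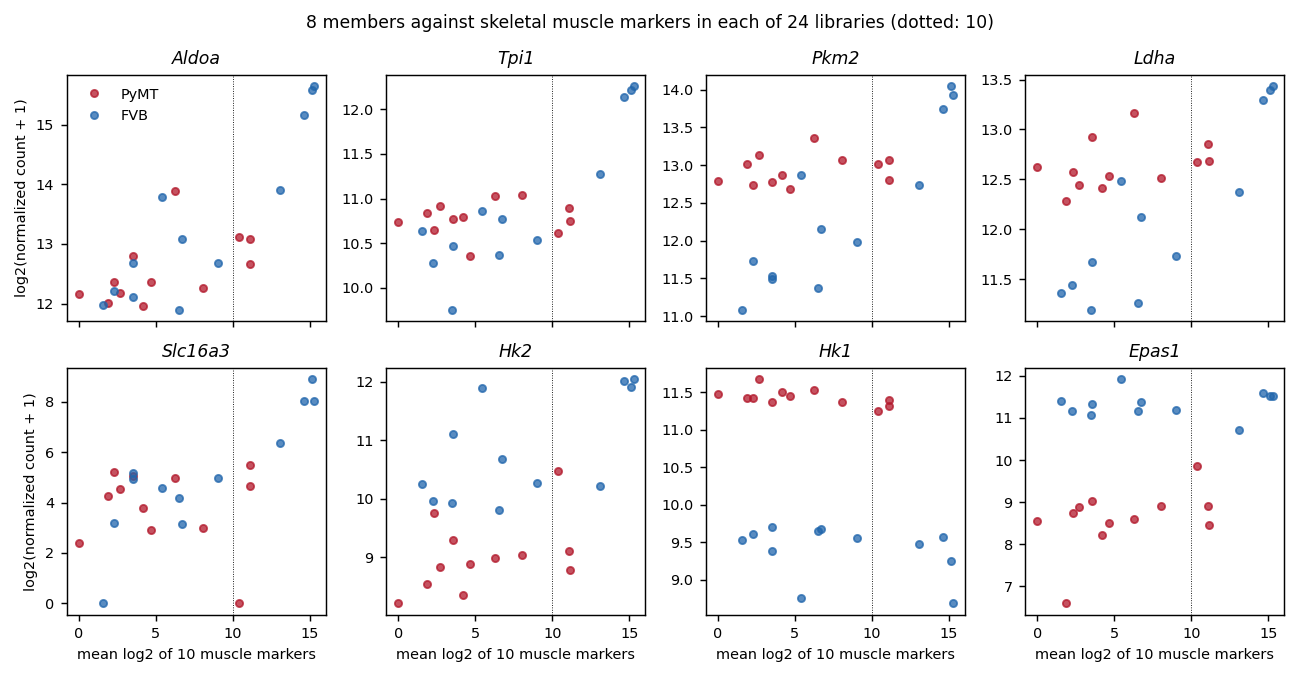
Normalized counts of 8 members on the log2 scale with 1 added (y axis) against the mean log2 level of 10 skeletal muscle markers (x axis) in 24 libraries, red for PyMT and blue for FVB. The FVB libraries above 10 are the highest for Aldoa, Tpi1 and Slc16a3, while Hk1 and Epas1 separate the genotypes on both sides of the dotted line.

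The alpha subunits of HIF did not move together. Hif1a, the widely expressed subunit, was at 752, 1338 and 1651 normalized counts in PyMT (lowest, median, highest) and 959.9, 1198 and 1363 in FVB, and its log2 fold changes by the quasi-likelihood test of edgeR, Benjamini-Hochberg adjusted, lay between -0.20 at week 6 and 0.33 at week 8, with 0.16 ± 0.10 (adjusted p = 0.201) over all weeks. In the same test Hif1a gave 0.26 (adjusted p = 0.0203) over all weeks without the 7 muscle-rich libraries, and 0.10 (adjusted p = 0.466) with the muscle covariate. With library size only it was 0.45 (adjusted p = 0.0045), and all these values were under a fold of 2. Its RNA says nothing of HIF protein, which is controlled by degradation. Epas1 (chr17:87153247-87232750), the HIF alpha subunit prominent in endothelium and fat, was lower in PyMT at every week.

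The PyMT normalized counts of Epas1 were 482, 931 and 480.1 at week 6, 425, 95.7 and 471 at week 8, 298, 377 and 352 at week 10 and 519, 364 and 388 at week 12. In FVB they were 2922, 1672 and 2284 at week 6, 3869.8, 2131 and 2299 at week 8, 2572, 2696 and 2925 at week 10 and 3089.8, 2345 and 2678 at week 12. All PyMT values were below all FVB values, and PyMT week 8 replicate 2, 1 of the 2 libraries with most zeros, was the lowest. Epas1 fell by the quasi-likelihood test of edgeR, Benjamini-Hochberg adjusted, with a log2 fold change of -2.63 ± 0.22 (adjusted p = 4.93e-10) over all weeks, and with -1.88 ± 0.32 (week 6, adjusted p = 0.00868), -3.03 ± 0.58 (week 8, adjusted p = 0.0178), -2.95 ± 0.18 (week 10, adjusted p = 0.000109) and -2.63 ± 0.20 (week 12, adjusted p = 0.000224). The week 8 call was lost without PyMT replicate 1 (log2 fold change -3.25, adjusted p = 0.066) or FVB replicate 2 (log2 fold change -3.19, adjusted p = 0.0506). Without the 2 libraries richest in zeros the value over all weeks was -2.49. Endothelial and adipocyte markers fell in the same samples, and their part in the Epas1 difference was not tested.

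Hif3a, a subunit with splice forms that can restrain the others, was counted low, at 0, 2.71 and 43.9 normalized counts in PyMT (lowest, median, highest) and 17.7, 57.4 and 228 in FVB. It was called lower over all weeks at -3.49 ± 0.71 (adjusted p = 0.000236) and at week 12 at -4.01 ± 1.03 (adjusted p = 0.0216) by the quasi-likelihood test of edgeR, Benjamini-Hochberg adjusted. The week 12 call was lost without PyMT replicate 3 (log2 fold change -3.67, adjusted p = 0.0808) or FVB replicate 3 (log2 fold change -3.75, adjusted p = 0.0882), with all 24 samples in 1 fit at -4.03 (adjusted p = 0.0772), and with the muscle covariate at -4.83 (adjusted p = 0.0782). It was called at week 6 without FVB replicate 1 and at week 10 without PyMT replicate 2 (adjusted p = 0.00793 and 0.0216). DESeq2 called it at weeks 6 and 8 (adjusted p = 0.00394 and 0.0102), and voom at weeks 8 and 10 (adjusted p = 0.0378 and 0.0156). In 3 PyMT libraries the count was 0, so its folds depend on the prior count and set no bound.

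The oxygen sensors Egln1 and Egln3 are prolyl hydroxylases that mark HIF alpha for degradation, and they moved in opposite directions. Egln1 (chr8:127432496-127473154), the main sensor in most tissues, had PyMT normalized counts of 289, 391 and 247 at week 6, 391, 309 and 343 at week 8, 216, 159 and 343 at week 10 and 220.4, 262 and 346 at week 12. Its FVB counts were 1411, 689 and 541 at week 6, 1689.6, 665 and 555 at week 8, 835, 759 and 1431 at week 10 and 1383, 517 and 619.5 at week 12. PyMT reached 391 and FVB began at 517, so the groups did not overlap. The log2 fold change was -1.65 ± 0.22 (adjusted p = 7.77e-07) over all weeks, and -1.53 ± 0.38 (week 6, adjusted p = 0.0351), -2.01 ± 0.37 (week 10, adjusted p = 0.00904) and -1.55 ± 0.38 (week 12, adjusted p = 0.0181), by the quasi-likelihood test of edgeR, Benjamini-Hochberg adjusted. At week 8 it was -1.46 ± 0.42 (adjusted p = 0.0633), and without FVB replicate 3 it was called at -1.71 (adjusted p = 0.0491). The week 6 call was lost without PyMT replicate 1 (log2 fold change -1.43, adjusted p = 0.118), FVB replicate 1 (log2 fold change -0.98, adjusted p = 0.0617), FVB replicate 2 (log2 fold change -1.68, adjusted p = 0.0637) or PyMT replicate 3 (log2 fold change -1.33, adjusted p = 0.122). The week 12 call was lost without PyMT replicate 1 (log2 fold change -1.40, adjusted p = 0.0658), FVB replicate 1 (log2 fold change -0.99, adjusted p = 0.029) or PyMT replicate 2 (log2 fold change -1.51, adjusted p = 0.0667), and with the muscle covariate at -0.55 (adjusted p = 0.325). Over all weeks it was -1.40 (adjusted p = 4.94e-07) with that covariate. Within FVB, Egln1 was highest in replicate 1 of weeks 6, 8 and 12 and replicate 3 of week 10. These were also the FVB libraries highest in brown fat markers, and the part of brown fat was not tested.

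Egln3 (chr12:55279968-55304847), a sensor whose gene is itself induced by HIF, was higher in PyMT. In PyMT its normalized counts were 533, 572 and 401 at week 6, 358, 958 and 464 at week 8, 594, 357 and 269 at week 10 and 652, 398 and 518 at week 12. The FVB counts were 263, 180.3 and 200.6 at week 6, 90.1, 35.6 and 142 at week 8, 152, 31.7 and 286 at week 10 and 202, 414 and 72.6 at week 12. The groups did not overlap at weeks 6 and 8, and they overlapped at week 10 through FVB replicate 3 and at week 12 through FVB replicate 2. Egln3 rose by the quasi-likelihood test of edgeR, Benjamini-Hochberg adjusted, with a log2 fold change of 1.63 ± 0.32 (adjusted p = 0.000165) over all weeks, and with 1.21 ± 0.26 (week 6, adjusted p = 0.0201) and 2.73 ± 0.56 (week 8, adjusted p = 0.0214). The values at the later weeks were 1.44 ± 0.69 (week 10, adjusted p = 0.203) and 1.23 ± 0.53 (week 12, adjusted p = 0.118). The week 6 call was lost without PyMT replicate 1 (log2 fold change 1.22, adjusted p = 0.0626), FVB replicate 2 (log2 fold change 1.10, adjusted p = 0.0717) or FVB replicate 3 (log2 fold change 1.23, adjusted p = 0.0517), and with all 24 samples in 1 fit at 1.21 (adjusted p = 0.2). The week 8 call was lost without FVB replicate 2 (log2 fold change 2.35, adjusted p = 0.0544). At week 12 Egln3 was called without FVB replicate 2, at 1.94 (adjusted p = 0.0151).

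Among the 6 HIF targets, P4ha1, P4ha2, Bnip3 and Adm fell over all weeks and none rose. P4ha1 (chr10:58786044-58836052) and P4ha2 (chr11:53913597-53945167) encode catalytic subunits of the enzyme that hydroxylates prolines of collagen. P4ha1 was counted in PyMT at 219.9, 324 and 275 at week 6, 211, 146 and 185 at week 8, 185, 283 and 241 at week 10 and 239, 222 and 273 at week 12 normalized counts. In FVB it was counted at 658, 556 and 377 at week 6, 719, 516 and 392 at week 8, 487, 506 and 615 at week 10 and 724, 558 and 805 at week 12. The highest PyMT sample (324) was below the lowest FVB sample (377). The log2 fold change was -1.29 ± 0.13 (adjusted p = 1.44e-08) over all weeks, and -1.57 ± 0.30 (week 8, adjusted p = 0.0184), -1.13 ± 0.25 (week 10, adjusted p = 0.0183) and -1.46 ± 0.20 (week 12, adjusted p = 0.00153), by the quasi-likelihood test of edgeR, Benjamini-Hochberg adjusted. At week 6 it was -0.97 ± 0.28 (adjusted p = 0.0611), and without FVB replicate 3 it was called at -1.11 (adjusted p = 0.0481). When only library size scaled the counts, it was -0.97 (adjusted p = 3.85e-07) over all weeks, just under a fold of 2. The week 8 call was lost without PyMT replicate 1 (log2 fold change -1.70, adjusted p = 0.0618), FVB replicate 2 (log2 fold change -1.60, adjusted p = 0.0594) or PyMT replicate 3 (log2 fold change -1.60, adjusted p = 0.0587), and the week 10 call without PyMT replicate 1 (log2 fold change -0.99, adjusted p = 0.078) or PyMT replicate 3 (log2 fold change -1.17, adjusted p = 0.0662), and with library size only at -0.81 (adjusted p = 0.0951).

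P4ha2 had a median of 41.8 normalized counts per kilobase of exon in FVB, against 135 for P4ha1. Its PyMT normalized counts were 114, 191 and 159.8 at week 6, 60.4, 14.4 and 96.1 at week 8, 23.6, 88.8 and 59.2 at week 10 and 170.0, 69.8 and 96.2 at week 12. Its FVB values were 402, 209 and 311 at week 6, 126, 144 and 367 at week 8, 186, 238 and 442 at week 10 and 283, 190.4 and 439.8 at week 12. At each single week the groups did not overlap, while across weeks the highest PyMT value passed the lowest FVB value. P4ha2 fell by the quasi-likelihood test of edgeR, Benjamini-Hochberg adjusted, with a log2 fold change of -1.64 ± 0.30 (adjusted p = 6.3e-05) over all weeks, and with -2.28 ± 0.57 (week 10, adjusted p = 0.0323) and -1.40 ± 0.42 (week 12, adjusted p = 0.0387). At weeks 6 and 8 the values were -1.002 ± 0.34 (week 6, adjusted p = 0.102) and -1.85 ± 0.74 (week 8, adjusted p = 0.149). At week 8 edgeR called P4ha2 from counts over packet size (-1.67, adjusted p = 0.0319) and in 1 fit of all 24 samples (-1.85, adjusted p = 0.0343). The week 10 call was lost without PyMT replicate 1 (log2 fold change -1.92, adjusted p = 0.0826), FVB replicate 2 (log2 fold change -2.40, adjusted p = 0.0556), PyMT replicate 3 (log2 fold change -2.34, adjusted p = 0.0979) or FVB replicate 3 (log2 fold change -1.85, adjusted p = 0.0525), and the week 12 call without FVB replicate 1 (log2 fold change -1.45, adjusted p = 0.0635), PyMT replicate 2 (log2 fold change -1.15, adjusted p = 0.117), PyMT replicate 3 (log2 fold change -1.31, adjusted p = 0.124) or FVB replicate 3 (log2 fold change -1.04, adjusted p = 0.145). The week 12 call was also lost with the muscle covariate (-1.80, adjusted p = 0.091), in 1 fit of all 24 samples (-1.42, adjusted p = 0.0927) and with library size only (-1.07, adjusted p = 0.0763), which also ended the week 10 call (-1.90, adjusted p = 0.054). Fibroblast markers, among them the collagens Col1a1 and Col1a2, fell in the same samples, and their part in the P4ha1 and P4ha2 differences was not tested.

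Bnip3 (chr7:146082519-146101202), a protein of the mitochondrial outer membrane that takes part in mitophagy, had the largest decrease among the HIF targets. The PyMT counts, normalized, were 252, 358 and 280.3 at week 6, 260.0, 105 and 122 at week 8, 87.2, 272 and 205 at week 10 and 328, 218 and 162 at week 12. In FVB they stood at 1999, 1154 and 1195 at week 6, 2149, 1344 and 1087 at week 8, 1534, 2476 and 2847 at week 10 and 1669.8, 1415 and 2027 at week 12. PyMT ended at 358 and FVB began at 1087. By the quasi-likelihood test of edgeR, Benjamini-Hochberg adjusted, Bnip3 fell with a log2 fold change of -2.98 ± 0.22 (adjusted p = 8.48e-11) over all weeks, and with -2.30 ± 0.27 (week 6, adjusted p = 0.00259), -3.22 ± 0.43 (week 8, adjusted p = 0.00672), -3.56 ± 0.43 (week 10, adjusted p = 0.00159) and -2.81 ± 0.28 (week 12, adjusted p = 0.000392). These calls held without any 1 library. The copies of its transcript elsewhere in mm9 make its level, and so its fold, uncertain.

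Adm, which encodes the vasodilator peptide adrenomedullin, was at 0, 24.8 and 72.7 normalized counts in PyMT (lowest, median, highest) and 27.6, 87.6 and 183 in FVB, with -1.73 ± 0.58 (adjusted p = 0.0156) over all weeks by the quasi-likelihood test of edgeR, Benjamini-Hochberg adjusted, and no call at a single week in this test, while DESeq2 (-1.44, adjusted p = 0.0406) and voom (-1.51, adjusted p = 0.0435) called it at week 12. The call over all weeks was lost when week 10 (-1.51, adjusted p = 0.0568) or week 12 (-1.84, adjusted p = 0.0671) was left out. PyMT replicate 2 was at 0 at weeks 6, 8 and 10, 3 libraries in which low counts came in packets. Ndrg1, a stress-induced gene, was at 642, 1205 and 3065 in PyMT and 614, 989 and 1490.2 in FVB, with a log2 fold change of 0.38 ± 0.21 (adjusted p = 0.137) over all weeks. Its PyMT replicate 1 of week 6 reached 3065 while PyMT replicate 2 was at 642, below all FVB samples of that week. Without that replicate 2 the week 6 value was 1.52 (adjusted p = 0.0127). Ankrd37, an ankyrin repeat protein, was not tested: its raw counts ran from 0 to 27 in PyMT and from 0 to 15 in FVB, with all 3 FVB samples of week 10 at 0. Low counts of these 3 libraries came in packets of 12, 13 and 19 reads, so a count of 0 there allows more than the floor of 3. Its exons share 24.9% of their length with those of Lrp2bp on the opposite strand. Whether the counting used strand is not given in the sources used here, so the reads of Ankrd37 are uncertain as well.

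Isoforms and paralogs were set against each other within each library, as log2 ratios of counts per kilobase of exon with 0.5 added, which do not depend on the scaling between libraries. Genotype labels were shuffled within weeks in a two-sided permutation test with 100000 resamples and Benjamini-Hochberg adjustment over 9 ratios. The members of each pair also enter the tests above, so the ratios restate these differences as balances. Sums of the adipocyte and luminal epithelial markers did not overlap between the genotypes. A ratio can thus differ through the mix of cells or within cells, and these cannot be told apart. The Slc2a1/Slc2a4 ratio was 2.75 ± 1.49 (SD, n = 12) in PyMT and -3.12 ± 1.12 in FVB, a difference of 5.88 with no overlap (permutation test, adjusted p = 7.2e-05). In every PyMT library Slc2a1 was the higher of the transporters per kilobase and in every FVB library Slc2a4 was. The Hk2/Hk1 ratio went from 1.96 ± 1.14 in FVB to -1.89 ± 0.68 in PyMT, a difference of -3.85 (permutation test, adjusted p = 7.2e-05), and here too the sign of the ratio differed between every PyMT and every FVB library. For Epas1/Hif1a the means were -1.59 ± 0.95 in PyMT and 1.27 ± 0.41 in FVB, a difference of -2.85 (permutation test, adjusted p = 7.2e-05), with groups that did not overlap.

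Aldoa exceeded Aldoc per kilobase in all 24 libraries, and the Aldoc/Aldoa ratio was 3.18 higher in PyMT, without overlap (permutation test, adjusted p = 7.2e-05). The Egln3/Egln1 ratio was 1.16 ± 0.62 in PyMT and -2.24 ± 1.24 in FVB, a difference of 3.40 with 1 FVB library inside the PyMT range (permutation test, adjusted p = 7.2e-05). Smaller and overlapping shifts were found for Eno2/Eno1 at -2.09, Ldha/Ldhb at 0.94 and Pfkp/Pfkl at -0.71 (permutation test, adjusted p = 0.000889, 0.000855 and 0.000889). The P4ha2/P4ha1 ratio differed by -0.44 and did not pass (permutation test, adjusted p = 0.167).

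**Figure D5:**
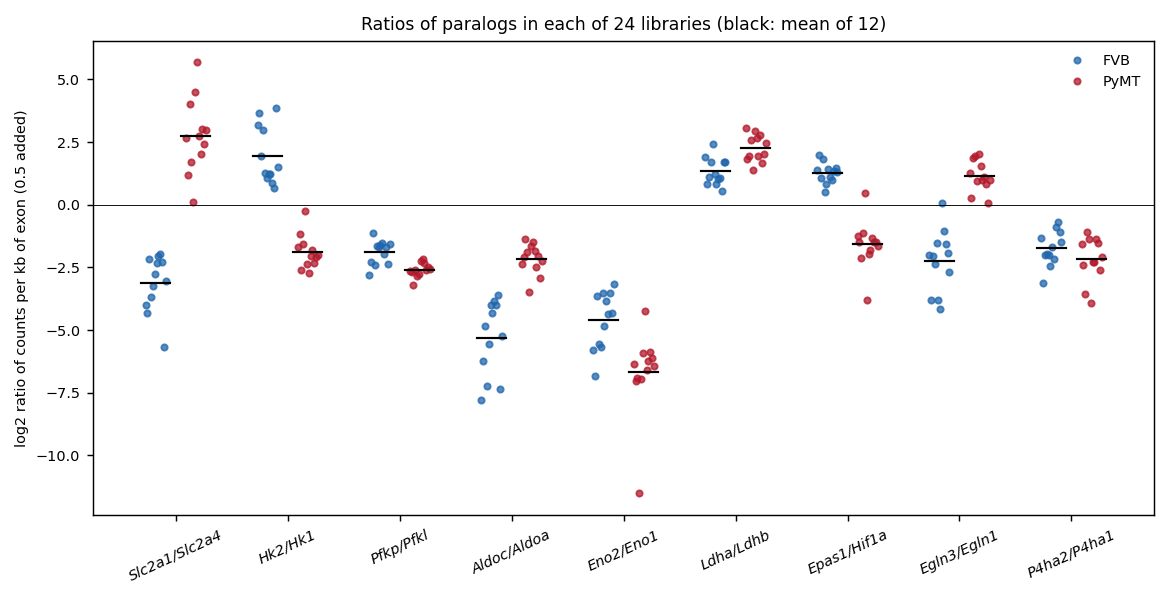
Log2 ratio of counts per kilobase of exon with 0.5 added (y axis) for 9 pairs of members (x axis) in each of 24 libraries, red for PyMT and blue for FVB, with black lines at the means of 12. The pairs Slc2a1/Slc2a4, Hk2/Hk1, Aldoc/Aldoa and Epas1/Hif1a do not overlap between the genotypes, and the lowest Eno2/Eno1 point is the library in which Eno2 had no count.

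Whether the difference between genotypes itself changed with age was tested in a fit of 8 groups. No member was called in the change of the difference from week 6 to week 12 by the quasi-likelihood test of edgeR, Benjamini-Hochberg adjusted, and 2 of 31 had an unadjusted p under 0.05, against 691 of 14918 genes. Over all genes tested 0 of 14918 were called in this contrast as well. These 2 members were Aldoc, whose difference grew by 1.08 ± 0.41 (adjusted p = 0.973), and Ndrg1, whose difference moved by -1.20 ± 0.57 (adjusted p = 1). From week 8 to week 10, across the step to carcinoma, 0 of 31 members had an unadjusted p under 0.05 and none was called, against 0.00670% of all genes tested, a share that stands for 1 gene. Within PyMT, week 12 against week 6 gave no call among the members with edgeR and 1 with DESeq2, which was Aldoc, and within FVB it gave none with either tool. In both of these contrasts edgeR called 0 of 14918 genes, so the lack of member calls is that of the whole table.

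A further 74 genes of glucose, glycogen and pentose phosphate metabolism and of the HIF pathway were counted beside the members, and 66 were tested. Over all weeks 34 of the 66 were called, 8 higher and 26 lower, with a median log2 fold change of -0.58. The share of all genes tested was 25.7%. At weeks 6, 8, 10 and 12 the calls numbered 11, 12, 16 and 21 of 66, against 10.0%, 9.95%, 13.9% and 20.7% of all genes tested. The largest difference was that of Car12, a membrane carbonic anhydrase, which was at 2457 ± 588 normalized counts (SD, n = 12) in PyMT and 41.7 ± 30.1 in FVB, and rose by 5.89 ± 0.33 (adjusted p = 1.58e-12) on the log2 scale by the quasi-likelihood test of edgeR, Benjamini-Hochberg adjusted. Pfkfb1, a paralog of Pfkfb3, fell to 43.8 ± 26.7 from 494 ± 195 normalized counts, with a log2 fold change of -3.51 ± 0.38 (adjusted p = 3.41e-08) and no overlap. Slc2a5, the fructose transporter, gave -3.84 ± 0.95 (adjusted p = 0.00153) with overlapping groups. The muscle forms Pgam2, Pygm and Eno3 gave -4.87 ± 1.24 (adjusted p = 0.00194), -4.33 ± 1.15 (adjusted p = 0.00292) and -3.55 ± 1.01 (adjusted p = 0.00487), and their FVB means of 948, 4728 and 2544 had SDs of 1544, 7826 and 4130.2, larger than the means. Skeletal muscle markers varied in the same libraries, and their part in these 3 differences was not tested.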

How the data were processed

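Total RNA was depleted of ribosomal RNA and sequenced from mammary tissue of 24 mice. The authors trimmed adapters, mapped reads with GSNAP on mm9 and used HTSeq to count the reads of each Ensembl gene, and the deposited values are these raw counts without normalization. Every count column belonged to 1 sample (0 columns were left over), and groups came from genotype and week. The members and gene lists were chosen with earlier results of these data known.

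Symbols, coordinates and exon lengths were taken from GENCODE M1 (mm9). A gene was tested if its CPM reached 1 in 12 or more of the 24 samples (14918 genes). Counts were TMM-scaled and compared with edgeR 4.0.16 (quasi-likelihood test, Benjamini-Hochberg over all genes tested) in R 4.3.3, per week, over all weeks with week as a factor, and between weeks in 8 groups. Calls had to pass 0.05 on the adjusted p and 2 on the fold change, and the SE was the log2 fold change over the square root of F. DESeq2 1.42.0 gave the size factors of normalized counts and, with limma 3.58.1 (voom with quality weights), alternative tests. Ratios were permuted in Python 3.11.15 with NumPy 2.4.6. Transcript windows of 50 bases, every 5 bases, were searched with minimap2 2.31.

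All members were described, and those called at 2 or more weeks or between weeks were given by sample. Other genes named were the 6 called with the largest change over all weeks. Alternatives were scaling by RLE or by library size, testing without the filter, the adjusted p alone, DESeq2, voom, counts over packet size, a muscle covariate, a replicate block, 1 fit of 24 samples, and single libraries or weeks left out. Leaving out the 2 libraries with most zeros, or the 7 with most muscle, was added after the data were seen. On simulated counts with 3 against 3 samples of week 12 the fit recovered 37 of 100 genes changed 4-fold and 0 of 100 changed 2-fold, with 4 of 41 calls false, and over all weeks 78 and 38 of 100, with 0 of 116 false. For a change of the difference between weeks 6 and 12 the recovery was 29 and 4 of 100. The chi-square per gene between replicates (20.4 to 238 over 24 pairs) showed no duplicated library. Depth was 6969375 to 13516601 counts, and the floor of 3 counts covers counting error only. Samples of a group came from separate mice per the study's methods, and no source says that replicate numbers pair them.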

Additional observations from a re-analysis of the deposited data

How the results depend on the processing

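Of 713 repeats of a count of called genes or of a paralog ratio, 690 were the same, 23 moved and 0 reversed. A count was the same if its total stayed within 1.5 times, and its directions were not compared. A ratio was the same if it kept its sign and its side of 0.05 on the adjusted p. The repeats include the contrasts between weeks, where the main counts were 0 and hardly any gene of the whole table was called. Agreement in those contrasts says little. Of 1319 repeats for single called genes, 104 lost the call and 0 reversed, and the cause was not tested. The count of members at week 8 (8) was 15 with voom, 13 with counts over packet size and 0 with the muscle covariate. The muscle score did not overlap between the genotypes at week 8, so that fit could hardly part the score from the genotype. The member count of PyMT week 12 against week 6 (0) was 1 with DESeq2. Among the 66 other genes, the week 6 count (11) was 19 with DESeq2, 18 over packet size and 17 with the muscle covariate, the week 8 count (12) was 19 without the filter, 21 with DESeq2, 20 with voom, 22 over packet size and 0 with the muscle covariate, the week 12 count (21) was 11 with the muscle covariate, and that of FVB week 12 against week 6 (0) was 1 with voom. With single libraries left out, member counts ran from 6 to 10 at week 6, 5 to 14 at week 8, 7 to 14 at week 10 and 10 to 14 at week 12, and counts of other genes from 4 to 16, 5 to 12, 11 to 18 and 14 to 28. Over all weeks the 17 member calls were 16 with the muscle covariate, 16 without the 7 muscle-rich libraries and 14 without the 2 libraries with most zeros. Library size alone raised the median of all genes by 0.29 (log2) over all weeks, where members split into 5 higher and 9 lower and all genes into 2050 higher and 2002 lower, against 1269 and 2571 with TMM. On this scale Gapdh was at 0.11 and Tpi1 at 0.05, both negative with TMM, and neither passed the test. Pfkl was called, at 1.31. Eno1 (0.73), Ldha (0.71), Pkm2 (0.68), Ndrg1 (0.66) and Hif1a (0.45) passed 0.05 on the adjusted p, under a fold of 2, which they did not with TMM. Gpi1, Eno2 and Slc16a3 passed with TMM and not on this scale. The reading of lower glycolysis, Ldha and Hif1a as unchanged thus depends on the scaling. Samples of the same number in the 2 genotypes correlated at -0.02 to 0.18, with 4 of 12 pairs above 0.1, against 0 of 24 pairs of different numbers, and since not every pair passed 0.1 the numbers were not taken as pairs. With a replicate block the member counts were 8, 9, 11 and 12 at weeks 6, 8, 10 and 12 and 18 over all weeks, and the calls of Egln1 at week 6 (-1.41, adjusted p = 0.0522), Egln3 at week 8 (2.73, adjusted p = 0.053) and Hif3a at week 12 (-4.12, adjusted p = 0.0569) were lost.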

Other observations

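Targets of HIF outside the 32 members also moved in both directions. The genes of this paragraph were picked from the list of 66 after their values had been seen. Vegfa, the angiogenic growth factor, was at 500.4 ± 185 in PyMT and 1755 ± 665 in FVB (normalized counts, SD, n = 12), with a log2 fold change of -1.83 ± 0.22 (adjusted p = 1.5e-07) over all weeks by the quasi-likelihood test of edgeR, Benjamini-Hochberg adjusted, and no overlap between the genotypes. Angptl4, an inhibitor of lipoprotein lipase, was at 449.5 ± 259 in PyMT and 2470.4 ± 726 in FVB, a change of -2.51 ± 0.29 (adjusted p = 1.14e-07), also without overlap. Tfrc, the transferrin receptor, was at 2061 ± 466 in PyMT and 481 ± 163 in FVB and rose by 2.11 ± 0.16 (adjusted p = 1.15e-10), and Car9, a second membrane carbonic anhydrase, was at 42.0 ± 38.5 in PyMT and 6.60 ± 10.3 in FVB, a change of 2.72 ± 0.79 (adjusted p = 0.00574) with overlapping groups. Pdk4, a paralog of Pdk1, was at 372 ± 541 in PyMT and 3153 ± 2957 in FVB, a change of -3.50 ± 0.64 (adjusted p = 7.18e-05). Adipocyte markers fell in the same samples, and their part in these differences was not tested.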
